A study of Arabidopsis thaliana with 19 samples.

Results

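The comparison set root tip cells of Arabidopsis seedlings aged 4 days and 16 hours (4D 16H, 3 libraries) against those of seedlings aged 4 days (4D, 3 libraries), with 2 libraries at 4 days and 8 hours (4D 8H) as the point between. These are 6 and 2 of the 19 libraries of a time course of 7 ages. All groups carried the same transgene, PET111:GFP, a reporter active in the differentiated columella, the innermost part of the root cap, and none was treated, so that the groups differed in age alone as far as the labels say. Seedlings grew on 1% sucrose in 16 h light and 8 h dark at 22 °C, each biological replicate came from its own sowing of seed, and harvests were made at one time of day at every age. Tips of about 1 mm were digested to single cells, GFP-positive cells were sorted away, and the remaining cells, which the study takes to be mostly stem cells, were sequenced as mRNA.

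Values are FPKM, fragments scaled by the length of the transcript and by the total of mapped reads in the library. Of 33201 loci in the table, the 18087 averaging 1 FPKM or more across the 19 libraries were compared. A locus was called where the adjusted p of limma (Benjamini-Hochberg, over all 18087 loci) was at most 0.05. Fold changes are 4D 16H over 4D on the scale of log2(FPKM + 1), which understates the change of low loci.

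The Arabidopsis root grows from a small group of stem cells around the quiescent centre, cells that rarely divide and keep their neighbours undifferentiated. The homeobox factor WOX5 is expressed in the quiescent centre, and PLETHORA and SCARECROW/SHORT-ROOT factors position it. Above the stem cells, daughters divide, make ribosomes and histones at a high rate, then leave the cycle, elongate and mature. TCX2, the regulator on which the study centred, is a relative of the LIN54 DNA-binding subunit of the animal DREAM complex, which represses cell cycle genes.

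Before the groups were compared, the libraries and the identity of the cells were examined. Depth, estimated from the steps between low FPKM values, was 22.7, 20.4 and 11.6 at 4D 16H and 18.8, 20.1 and 28.0 at 4D, and was 10.4 and 12.9 at 4D 8H (all in units of 1e+06 reads). Spearman correlation over the loci was 0.966 to 0.981 within 4D 16H and 0.976 to 0.980 within 4D, and was 0.984 between 4D 16H replicate 2 and 4D replicate 1, so that 4D replicate 1 resembled that 4D 16H library more than it did its own group. Markers of the quiescent centre were low. WOX5 and AGL42 summed to 1.30 to 3.69 FPKM at 4D 16H and 4.15 to 8.61 FPKM at 4D. In contrast, 6 root cap markers summed to 519 to 585 FPKM at 4D 16H and 550.5 to 584 FPKM at 4D. The sum of 8 epidermis and root hair markers was 712 to 944 FPKM at 4D 16H and 407 to 757 FPKM at 4D, and that of 8 endodermis markers was 1207 to 1462 FPKM at 4D 16H and 919 to 2352 FPKM at 4D. The ranges of the groups overlapped also for 8 xylem markers, at 189.1 to 373 FPKM at 4D 16H and 304 to 399 FPKM at 4D, and for 5 phloem markers, at 24.6 to 35.6 FPKM at 4D 16H and 24.6 to 36.4 FPKM at 4D. None of these markers was at 0 in all libraries, and WOX5 was the one that was called. Transcripts of maturing tissues were thus present beside those of the stem cell niche. In such bulk samples fewer cells of a type and less RNA per cell cannot be told apart, and the part of cell makeup in the results below was not tested.

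To ask which genes differed after the first 16 hours, all loci were tested. 186 loci (1.03%) were called, 132 higher at 4D 16H (0.73%) and 54 lower (0.299%). The adjusted p of the calls lay between 0.0283 and 0.0494, so that all sat near the threshold. Differences were modest. The median log2 fold change was 0.75 among loci that rose and -0.64 among loci that fell, and 10 rose and 7 fell by more than 1. At all 186 called loci the 3 libraries of 4D 16H lay entirely above or below those of 4D, which was the case for 4937 of the 18087 loci (27.3%), above at 3782 (20.9%) and below at 1155 (6.39%). An unadjusted p under 0.05 was found at 3080 loci higher (17%) and 1160 loci lower (6.41%). The plot of fold change against level shows these calls among all loci.

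**Figure D1:**
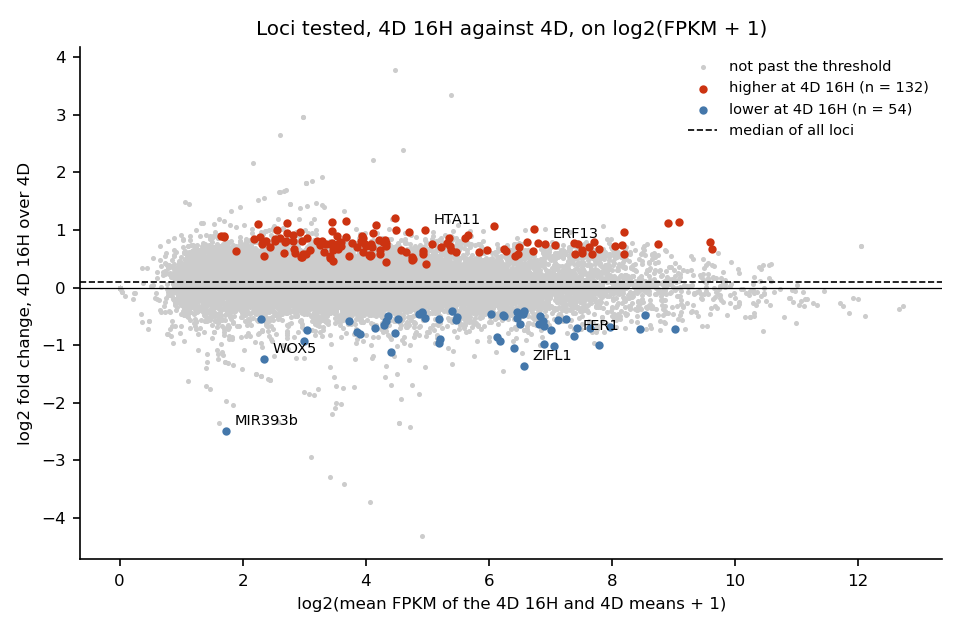
Log2 fold change of each locus (4D 16H over 4D, y axis) against its level (log2 of the mean FPKM of both groups plus 1, x axis), with 132 loci that rose in red, 54 that fell in blue and the remaining loci in grey. The dashed line is the median of all loci, 0.09, and most called loci lie at moderate fold changes, with medians of 0.75 and -0.64. MIR393b, listed at 0 at 4D 16H, is the lowest called point.

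The number of calls depended on single libraries and on the scaling. Without 4D replicate 2 no locus was called by limma (2862 loci with an unadjusted p under 0.05). Without 4D replicate 3 the calls were 5 (RAV1, ERF13, MKS1, AT4G01890 and SULTR3;4), whereas 975 were called without 4D replicate 1. Without 4D 16H replicate 1 there was 1 (AT3G13240), and without 4D 16H replicate 2 there were 2 (ATCG00960 and ATCG01170). AT3G13240 was at 0, 11.0 and 19.3 FPKM at 4D 16H. ATCG00960 and ATCG01170 shared the same values, 21.0, 0 and 20.5 FPKM at 4D 16H. All 3 loci were at 0 in every library of 4D and 4D 8H, and the library left out was the 4D 16H library at 0. Leaving out 4D 16H replicate 3 gave 676 calls. A fit of the 6 libraries alone, without the spread that all 7 ages share, called 2 loci (MIR393b and AT5G63941). Leaving out 5D 8H replicate 3 left 0 calls by limma (3986 loci with an unadjusted p under 0.05), leaving out 6D replicate 3 gave 1452 calls, and leaving out any other library of the remaining ages or of 4D 8H gave 20 to 548 calls. The loci named in this paragraph were picked out by these fits after their values were seen. Of the calls 71.0% were higher at 4D 16H, against 51.5% after upper quartile scaling and 42.9% after quantile normalization, and the median log2 fold change of all loci was 0.09, 0.04 and 0.00 in these 3 fits. For this reason the values of each library are given below, and each list of genes is set beside all loci.

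Among the 12 loci that rose most were genes of the cell surface, of transport and of stress signalling. UCC3 (AT3G60280), a uclacyanin of the blue copper protein family, was at 42.3, 26.0 and 21.6 FPKM in the 4D 16H libraries, against 16.7, 11.3 and 8.82 FPKM in the 4D libraries, and at 21.7 and 17.9 FPKM at 4D 8H. The 4D 16H libraries all lay above those of 4D, with 4D 16H replicate 1 the highest (log2 fold change 1.21, with SE 0.26 and limma adjusted p = 0.0474). AT4G16270, a class III peroxidase, was at 7.44, 7.53 and 9.10 FPKM at 4D 16H, against 2.65, 3.90 and 3.01 FPKM at 4D, and was already at 7.18 and 7.77 FPKM at 4D 8H. Its groups were well apart (log2 fold change 1.11, with SE 0.16 and limma adjusted p = 0.0283). The mitochondrial dicarboxylate carrier DIC2 (AT4G24570) was at 101, 90.3 and 80.7 FPKM at 4D 16H, against 48.5, 33.0 and 47.5 FPKM at 4D, with 61.4 and 81.5 FPKM at 4D 8H, and rose by 1.07 on the log2 scale (SE 0.20).

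The most abundant of these loci were AT4G12510 and AT4G12520, near-identical lipid transfer protein genes that lie next to each other. AT4G12510 was at 851, 791 and 586 FPKM at 4D 16H, against 445, 236 and 347 FPKM at 4D. AT4G12520 was at 736, 715 and 519 FPKM at 4D 16H, against 402, 213 and 306 FPKM at 4D. Reads of such copies can be shared, so the split between them is uncertain, and both rose by more than 1 on the log2 scale (1.14 and 1.12). A pair of AP2/ERF transcription factor genes was also in this group. ORA47 (AT1G74930), which in Arabidopsis activates jasmonate synthesis, was at 171, 159.9 and 94.8 FPKM at 4D 16H, against 67.2, 54.9 and 83.7 FPKM at 4D, with replicate 3 the lowest of the 4D 16H libraries and still above every 4D library (log2 fold change 1.01). AT1G19210 was at 31.4, 20.6 and 18.4 FPKM at 4D 16H, against 10.2, 9.09 and 11.8 FPKM at 4D (log2 fold change 1.08, limma adjusted p = 0.0283). The remaining loci were AT3G15700, annotated as a P-loop nucleoside triphosphate hydrolase, AT5G24880, AT3G05936, the leucine-rich repeat gene AT1G33670 and the histone gene HTA11, with log2 fold changes of 0.99 to 1.15.

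Among the 12 loci that fell most were transporters, channels and enzymes of lipid, hormone and aldehyde metabolism. ZIFL1 (AT5G13750), a facilitator carrier that supports polar auxin transport in roots, was at 30.7, 59.2 and 74.8 FPKM at 4D 16H, against 116, 145 and 141 FPKM at 4D, and the 4D 8H libraries held 59.5 and 64.2 FPKM. All 3 libraries of 4D 16H were below those of 4D, and replicate 1 was far below its replicates (log2 fold change -1.36, with SE 0.28 and limma adjusted p = 0.0474). The auxin-conjugating glycosyltransferase UGT74E2 (AT1G05680) was at 50.2, 43.2 and 70.8 FPKM at 4D 16H, against 107, 109 and 120.3 FPKM at 4D, and the 4D libraries were close together (log2 fold change -1.05). SOS3 (AT5G24270), a calcium sensor needed for salt tolerance, was at 20.3, 27.0 and 24.4 FPKM at 4D 16H, against 42.4, 50.3 and 48.8 FPKM at 4D (log2 fold change -0.96, with SE 0.17 and limma adjusted p = 0.0290).

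A mechanosensitive channel gene, MSL4 (AT1G53470), was at 67.7, 91.3 and 102 FPKM at 4D 16H, against 139, 230.4 and 166 FPKM at 4D. PIP5K1 (AT1G21980), a phosphatidylinositol phosphate kinase, was at 60.3, 75.7 and 101 FPKM at 4D 16H, against 125, 209 and 139 FPKM at 4D. In both genes 4D replicate 2 was the highest library, the groups did not overlap, and the log2 fold changes were -1.01 and -0.98. The metacaspase gene MC3, the mitochondrial aldehyde dehydrogenase gene ALDH2B7 and AT5G16010, a steroid dehydrogenase family gene, fell by 0.92, 0.89 and 1.00 on the log2 scale.

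RPA2 (AT2G24490), a subunit of the single-strand DNA binding protein of replication, was at 37.8, 48.8 and 60.9 FPKM at 4D 16H, against 75.3, 84.0 and 109 FPKM at 4D (log2 fold change -0.86). AT2G24480, a RING finger gene, overlaps RPA2 on the opposite strand and was at 12.4, 14.0 and 10.4 FPKM at 4D 16H, against 21.9, 31.0 and 31.4 FPKM at 4D (log2 fold change -1.13). Whether strand was used in counting is not given in the sources used here, so reads of these overlapping genes cannot be told apart. The plot of the largest rises and falls shows every library of these 24 loci.

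**Figure D2:**
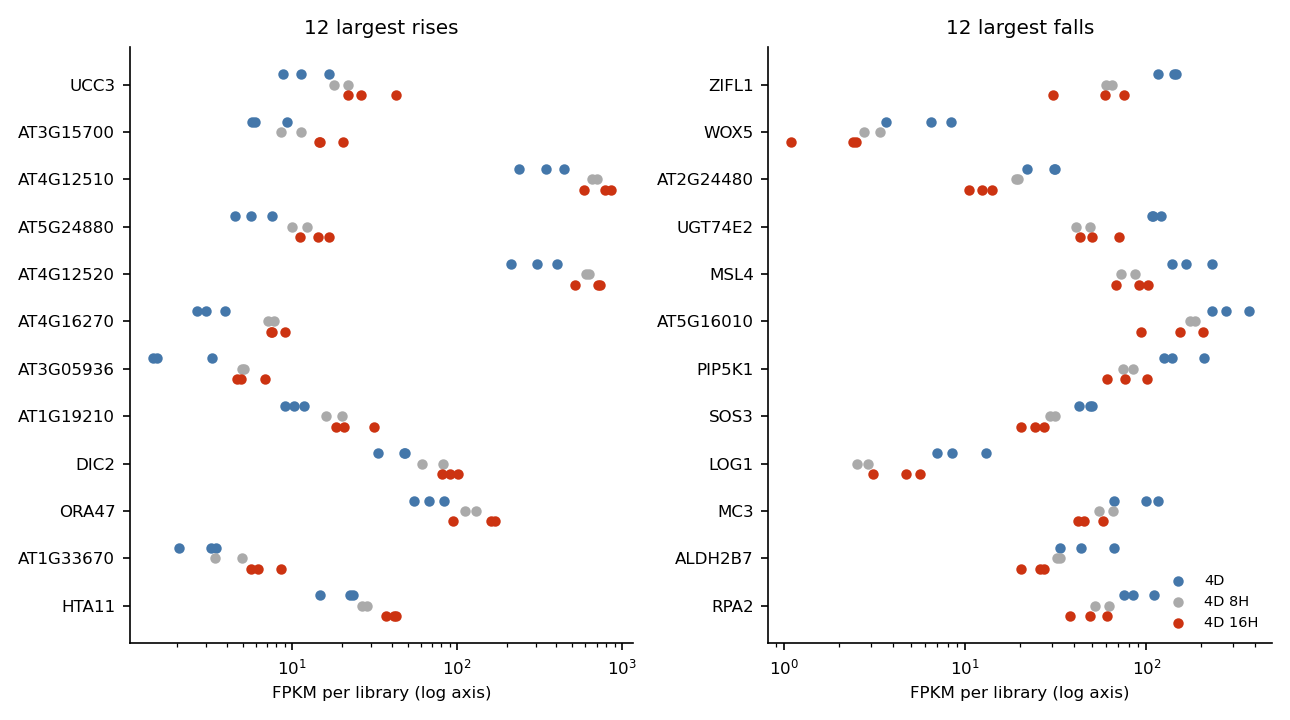
FPKM of each library (points, log axis) for the 12 loci that rose most (left) and the 12 that fell most (right) among called loci of at least 5 FPKM, with 4D in blue, 4D 8H in grey and 4D 16H in red. The 4D and 4D 16H libraries do not overlap at any of the loci shown, as for ZIFL1 with 30.7, 59.2 and 74.8 FPKM at 4D 16H, against 116, 145 and 141 FPKM at 4D.

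The shortest transcript among the calls was the precursor of microRNA MIR393b (AT3G55734), the family of which targets auxin receptor transcripts. It was listed at 0 in the 3 libraries of 4D 16H and in both of 4D 8H, against 4.27, 3.98 and 5.70 FPKM at 4D. An FPKM of 0 can be a failed estimate for a short transcript, so no fold is given. This locus was chosen for mention after its values were seen.

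To ask how the stem cell regulators behaved, 25 genes of the niche were listed, of which 19 passed the filter. Of these 1 rose and 1 fell, where 0.73% and 0.299% of all loci did. The 4D 16H libraries lay above those of 4D in 7 (36.8%, against 20.9% of all loci) and below in 1 (5.26%, against 6.39%). The median log2 fold change was 0.27, against 0.09 over all loci (0.21 and 0.18 after upper quartile and quantile scaling, and 0.17 without 4D 16H replicate 2). WOX5 (AT3G11260, chromosome 3, 3527280 to 3528440, TAIR10.1) fell, at 2.40, 2.50 and 1.09 FPKM at 4D 16H, against 3.67, 8.32 and 6.48 FPKM at 4D, with 2.77 and 3.37 FPKM at 4D 8H. Every 4D 16H library was below every 4D library, 4D 16H replicate 3 was the lowest, and 4D replicate 1 lay nearest to 4D 16H (log2 fold change -1.24, with SE 0.27 and limma adjusted p = 0.0480). The other marker of the quiescent centre, the MADS-box gene AGL42, was at 1.08, 1.19 and 0.203 FPKM at 4D 16H, against 0.485, 0.291 and 0.784 FPKM at 4D, with overlapping libraries and a fold change that did not pass (adjusted p of limma 0.571).

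LHW (AT2G27230), a bHLH factor that acts in vascular initials, rose and was at 11.6, 12.2 and 11.2 FPKM at 4D 16H, against 8.02, 8.08 and 7.43 FPKM at 4D. Its replicates were close together in both groups (log2 fold change 0.52, with SE 0.12 and limma adjusted p = 0.0486). PLT1, a PLETHORA factor of the meristem, was at 7.56, 7.45 and 9.23 FPKM at 4D 16H, against 4.58, 6.26 and 3.20 FPKM at 4D, and SHR, the mobile factor of the ground tissue, was at 8.20, 6.54 and 4.72 FPKM at 4D 16H, against 4.46, 4.04 and 3.46 FPKM at 4D. In both the 4D 16H libraries lay above those of 4D, but neither passed (adjusted p of limma 0.0831 and 0.113). SCR, which acts with SHR, was at 10.04, 9.36 and 9.74 FPKM at 4D 16H, against 8.39, 9.56 and 6.11 FPKM at 4D, with overlapping libraries.

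TCX2 (AT4G14770, chromosome 4, 8480634 to 8484976, minus strand) was at 2.33, 2.84 and 3.98 FPKM at 4D 16H, against 2.27, 2.60 and 1.90 FPKM at 4D, and at 2.97 and 2.17 FPKM at 4D 8H. The libraries of the groups overlapped. The log2 fold change of 0.30 (SE 0.19) did not pass (limma adjusted p = 0.357), and a two-sided exact permutation test of the 3 against 3 libraries gave p = 0.2, where 0.1 is the smallest p this design allows. The study chose the 9 genes of its model of TCX2 with networks that used these libraries, and the 6 that passed the filter, WOX5 and AGL42 among them, had a median log2 fold change of 0.26 (0.15 without 4D 16H replicate 2, 0.40 without replicate 1). The cytokinin response factor CRF2 was at 10.6, 15.0 and 11.4 FPKM at 4D 16H, against 9.18, 10.1 and 8.66 FPKM at 4D, and the helicase gene AT2G47680 was at 3.65, 3.30 and 4.12 FPKM at 4D 16H, against 2.60, 2.64 and 2.09 FPKM at 4D. The 4D 16H libraries of both were above those of 4D without passing (adjusted p of limma 0.221 and 0.198). FLP, a MYB factor of stomatal and root lineages, was at 2.70, 4.55 and 5.10 FPKM at 4D 16H, against 3.67, 3.57 and 3.20 FPKM at 4D, with overlap. WRKY58, ET2 and GPRI1 were under the filter of 1 FPKM.

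To ask about protein synthesis, genes of ribosomal protein families were taken from the annotation by product name. Products with words such as chloroplast, plastid or mitochondrial were left out. Genes with other product names, such as AT4G31460 (Ribosomal L28 family) and AT1G15810 (S15/NS1, RNA-binding protein), were not in the list. Both were called higher (log2 fold change 0.62 and 0.57). Of 278 genes listed, 253 were tested. The 4D 16H libraries lay above those of 4D in 209 of them (82.6%) and below in 4, against 20.9% and 6.39% of all loci, and the median log2 fold change was 0.54, against 0.09. Upper quartile and quantile scaling gave medians of 0.48 and 0.46 for the list, and leaving out each of the 6 libraries gave 0.50 to 0.59. Nevertheless, limma called 3 members higher and 1 lower. Many ribosomal protein genes have near-identical copies, for which the split of reads is uncertain. The L39 family genes AT4G31985 and AT2G25210 both rose. AT4G31985 was at 345, 299 and 341 FPKM at 4D 16H, against 214, 179 and 204 FPKM at 4D, and AT2G25210 was at 271, 243 and 281 FPKM at 4D 16H, against 165, 140.0 and 152 FPKM at 4D. The 4D 8H libraries of AT2G25210, at 204 and 190.2 FPKM, fell between the groups, and the log2 fold changes were 0.72 and 0.79.

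RPL27AB (AT1G23290), a large subunit gene, was at 240.2, 183 and 206 FPKM at 4D 16H, against 144, 111 and 114 FPKM at 4D (log2 fold change 0.76, with SE 0.17 and limma adjusted p = 0.0486). The member that fell was AT5G63300, annotated as an S21 family protein of the kind found in bacteria and organelles, at 10.7, 13.5 and 13.2 FPKM at 4D 16H, against 16.7, 22.4 and 23.9 FPKM at 4D (log2 fold change -0.70). Its libraries did not overlap, and those of 4D 8H, at 18.2 and 18.2 FPKM, were in the range of 4D.

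Nucleolar genes that assemble ribosomes also lay mostly above 4D. Several names chosen for this list, such as EBP2 and NOC2, matched no single locus by name. All 24 genes that the list held were tested, 2 rose and none fell. Of these 24, 19 had 4D 16H above 4D (79.2%, against 20.9% of all loci) and 1 below (4.17%, against 6.39%). The median log2 fold change was 0.42 (0.36 and 0.32 after upper quartile and quantile scaling). NAP57 (AT3G57150), the pseudouridine synthase of box H/ACA particles, was at 26.7, 25.3 and 34.4 FPKM at 4D 16H, against 16.7, 14.0 and 11.4 FPKM at 4D. NOP56 (AT1G56110), a core protein of box C/D particles, was at 64.4, 56.5 and 74.5 FPKM at 4D 16H, against 38.9, 35.7 and 27.9 FPKM at 4D. In both genes 4D 16H replicate 3 was the highest and 4D replicate 3 the lowest library, and 4D 8H lay between (NOP56, 45.6 and 44.6 FPKM). The log2 fold changes were 0.99 (SE 0.22) and 0.92 (SE 0.21). The fibrillarin gene FIB2, the methyltransferase partner of NOP56, had a mean of 67.2 ± 7.89 FPKM over the 3 libraries of 4D 16H, against 33.8 ± 4.81 FPKM over those of 4D (± SD), which did not pass (adjusted p of limma 0.0596), and the member with 4D 16H below was FZF, at 143, 157 and 171 FPKM at 4D 16H, against 203, 208 and 303 FPKM at 4D.

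The study predicted targets of TCX2 from networks of its sorted stem cell populations, and not from these libraries. Of 91 predicted targets 31 belong to ribosomal protein families and 1 to the nucleolar list, so that the lists are not separate. In the 88 tested, 1 rose and none fell. The 4D 16H libraries lay above those of 4D in 74 (84.1%, against 20.9% of all loci) and below in 1 (1.14%, against 6.39%). The median log2 fold change was 0.52 (0.46 and 0.45 after the other scalings). The called member was PRMT11 (AT4G29510), a protein arginine methyltransferase, at 19.4, 19.8 and 18.4 FPKM at 4D 16H, against 12.6, 12.8 and 12.5 FPKM at 4D, with replicates close together in both groups (log2 fold change 0.57, with SE 0.11 and limma adjusted p = 0.0449).

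To ask about cell division, lists of S phase, histone, G2/M and regulator genes were compared. Of 54 genes of G2/M, spindle and cytokinesis tested, 3 rose, none fell, 31 had 4D 16H above 4D (57.4%, against 20.9% of all loci) and none below, and the median log2 fold change was 0.36 (0.32 and 0.22 after upper quartile and quantile scaling). CDC20.1 (AT4G33270) and CDC20.2 (AT4G33260), neighbouring genes for activators of the anaphase-promoting complex, both rose. CDC20.1 was at 11.6, 9.05 and 12.2 FPKM at 4D 16H, against 6.73, 5.55 and 6.04 FPKM at 4D, and CDC20.2 was at 6.32, 4.54 and 6.01 FPKM at 4D 16H, against 3.31, 2.38 and 2.67 FPKM at 4D. The copies are similar in sequence, so the split of reads between them is uncertain, and their log2 fold changes were 0.74 and 0.80. CYC1BAT (AT5G06150), a B-type cyclin also called CYCB1;2, was at 8.67, 8.84 and 10.8 FPKM at 4D 16H, against 7.03, 5.10 and 4.95 FPKM at 4D, and 4D replicate 1 was the nearest 4D library to 4D 16H (log2 fold change 0.65, limma adjusted p = 0.0486).

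Histone genes package the newly made DNA. Several names chosen for this list, such as H1.1, H1.2 and HTR1, matched no single locus by name. Of 19 core and linker histone genes tested, 2 rose, none fell, 15 had 4D 16H above 4D (78.9%, against the same 20.9%) and none below, and the median log2 fold change was 0.44 (0.38 and 0.39 after the other scalings). HTA11 (AT3G54560), a variant of the H2A.Z type, was at 41.6, 36.8 and 42.8 FPKM at 4D 16H, against 23.3, 14.7 and 22.5 FPKM at 4D. HTA6 (AT5G59870), of the H2A.W type found in heterochromatin, was at 134, 108 and 129 FPKM at 4D 16H, against 75.1, 64.7 and 73.9 FPKM at 4D. The 4D 16H libraries of each gene were close to each other and far above 4D, with 4D 8H between at 28.3 and 26.5 FPKM for HTA11 and 88.6 and 92.9 FPKM for HTA6, and the log2 fold changes were 0.99 and 0.79. HTB2, an H2B gene, was at 63.8, 62.8 and 62.1 FPKM at 4D 16H, against 37.5, 35.4 and 36.5 FPKM at 4D, just outside the threshold (adjusted p of limma 0.0510).

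No member of the S phase list was called by limma, whereas RPA2, a replication gene outside the list, fell as given above. Of 41 members tested, 22 had an unadjusted p under 0.05 higher at 4D 16H and 1 lower, where 17% and 6.41% of all loci did. The 4D 16H libraries lay above those of 4D in 24 (58.5%, against 20.9% of all loci) and below in none. The median log2 fold change was 0.33 (0.28 and 0.21 after upper quartile and quantile scaling). PCNA2, the sliding clamp of replication, was at 14.6, 15.3 and 17.1 FPKM at 4D 16H, against 9.07, 8.29 and 10.9 FPKM at 4D, and CDT1B, a licensing factor, was at 3.16, 3.05 and 3.49 FPKM at 4D 16H, against 1.58, 1.38 and 2.07 FPKM at 4D (adjusted p of limma 0.0614 and 0.0751). The list of E2F, DREAM and MYB3R regulators had a median near 0. Of 18 tested, none was called by limma, and 1 had an unadjusted p under 0.05 above and 4 below. The 4D 16H libraries lay above those of 4D in 1 (5.56%, against 20.9% of all loci) and below in 3 (16.7%, against 6.39%). The median was -0.06 (-0.11 and -0.18 after the other scalings). ALY1, a DREAM subunit gene, was at 6.20, 6.62 and 7.56 FPKM at 4D 16H, against 7.73, 11.0 and 13.5 FPKM at 4D, and TSO1, a paralogue of TCX2, was at 11.2, 10.4 and 11.4 FPKM at 4D 16H, against 9.03, 6.99 and 8.00 FPKM at 4D (adjusted p of limma 0.0696 and 0.107).

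D-type cyclins and CDK inhibitors had a median of 0.21 with none of 20 called by limma and 1 with an unadjusted p under 0.05. This median was 0.08 after quantile scaling and 0.12 without 4D 16H replicate 2. Genes of DNA methylation and chromatin maintenance had a median of 0.18 (0.05 after quantile scaling) with none of 21 called by limma. The 4D 16H libraries lay above those of 4D in 11 (52.4%, against 20.9% of all loci) and below in none. An unadjusted p under 0.05 was found at 5, all higher, where 17% of all loci had one higher and 6.41% lower. VIM1 and MET1, which maintain CG methylation after replication, were the nearest to the threshold. VIM1 was at 10.7, 9.56 and 11.5 FPKM at 4D 16H, against 7.27, 6.81 and 6.72 FPKM at 4D, and MET1 was at 6.72, 5.51 and 6.95 FPKM at 4D 16H, against 4.40, 4.03 and 4.75 FPKM at 4D (adjusted p of limma 0.0635 and 0.0809). The plot of gene lists shows all members of the lists named here.

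Promoters of called members of these groups were read from the RefSeq sequence of TAIR10.1 to show which known elements they carry, as the 250 bases before the annotated start. They were chosen after the values were seen, from called members the promoters of which overlap no other gene. 6 motifs were searched on both strands. These were the site II element (TGGGCC) and telo-box (AAACCCTA), known from ribosomal and cycling-cell genes, the core of the mitosis-specific activator (MSA) element (CCAACGG) bound by MYB3R factors, an E2F site (TTTCCCGC), the abscisic acid response element (ACGTGNC) and the core of the dehydration response element (DRE, ACCGAC). Capitals mark the matches. Shown are the L39 genes AT2G25210 (chr2:10739605-10739854, plus strand) and AT4G31985 (chr4:15469591-15469840, plus strand), the cyclin CYC1BAT (chr5:1861704-1861953, minus strand), the histone HTA6 (chr5:24116221-24116470, minus strand) and, from the genes that fell, LTI78 (chr5:21240467-21240716, plus strand).
AT2G25210: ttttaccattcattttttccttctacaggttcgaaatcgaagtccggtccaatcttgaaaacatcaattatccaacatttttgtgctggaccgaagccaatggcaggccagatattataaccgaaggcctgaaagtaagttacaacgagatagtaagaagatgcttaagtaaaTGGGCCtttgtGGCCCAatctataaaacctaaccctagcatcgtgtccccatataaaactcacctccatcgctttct
AT4G31985: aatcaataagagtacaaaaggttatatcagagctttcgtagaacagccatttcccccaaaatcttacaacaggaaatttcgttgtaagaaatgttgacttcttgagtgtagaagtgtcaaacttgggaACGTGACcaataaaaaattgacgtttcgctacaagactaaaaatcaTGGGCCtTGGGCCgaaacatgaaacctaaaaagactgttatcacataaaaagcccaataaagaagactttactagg
CYC1BAT: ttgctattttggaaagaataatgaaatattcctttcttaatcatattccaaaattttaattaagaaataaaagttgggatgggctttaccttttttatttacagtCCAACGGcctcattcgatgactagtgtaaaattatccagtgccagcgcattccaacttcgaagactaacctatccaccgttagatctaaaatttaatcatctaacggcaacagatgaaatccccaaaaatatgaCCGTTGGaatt
HTA6: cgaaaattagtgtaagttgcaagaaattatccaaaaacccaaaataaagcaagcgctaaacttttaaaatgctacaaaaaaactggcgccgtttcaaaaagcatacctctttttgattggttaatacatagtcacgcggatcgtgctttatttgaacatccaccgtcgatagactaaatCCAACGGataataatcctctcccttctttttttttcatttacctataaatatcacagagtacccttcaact
LTI78: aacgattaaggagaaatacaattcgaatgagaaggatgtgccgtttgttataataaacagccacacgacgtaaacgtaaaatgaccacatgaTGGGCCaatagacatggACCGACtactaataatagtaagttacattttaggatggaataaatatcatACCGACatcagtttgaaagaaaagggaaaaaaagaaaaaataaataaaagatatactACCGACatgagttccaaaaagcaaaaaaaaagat

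Both L39 promoters held 2 site II elements near the start, at 77 and 66 bases before it in AT2G25210 and at 76 and 69 bases in AT4G31985, which also held an abscisic acid response element at 122 bases. CYC1BAT held MSA cores at 145 and 11 bases and HTA6 held 1 at 71 bases. LTI78 held 3 DRE cores at 141, 91 and 34 bases and a site II element at 158 bases. Over the 18010 promoters searched, the site II element was found in 16.7%, the telo-box in 3.52%, the MSA core in 1.73% and the DRE core in 5.35%. The abscisic acid response element was in 9.62% of them, and the E2F site in 0.622% (19.5% of S phase promoters). The site II element was in 51.2% of S phase, 47.8% of ribosomal, 45.8% of nucleolar, 36.8% of histone and 22.2% of G2/M promoters, and the MSA core in 14.8% of G2/M and 10.5% of histone promoters. Among called loci the shares for the site II element were 9.85% of those that rose and 13.0% of those that fell, and for the MSA core 5.30% and 1.85%. The DRE core was in 9.26% of the promoters of loci that fell and 4.55% of those that rose. For the abscisic acid response element these shares were 5.56% and 7.58%. These shares describe the sequences and were not tested.

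To ask about stress and wounding, which handling and digestion of roots can also engage, early touch and wound response genes were listed. Of 49 tested, 1 rose, none fell, 24 had 4D 16H above 4D (49.0%, against 20.9% of all loci) and none below, and the median log2 fold change was 0.42 (0.36 and 0.35 after upper quartile and quantile scaling, 0.28 to 0.45 without each library). ERF13 (AT2G44840), an ethylene response factor induced by wounding, was at 154, 148 and 145 FPKM at 4D 16H, against 85.0, 76.9 and 105 FPKM at 4D, and the 4D 8H libraries, at 134 and 151 FPKM, were close to 4D 16H. The 4D 16H libraries lay close together and well above 4D replicate 3, the highest of 4D (log2 fold change 0.75, with SE 0.12 and limma adjusted p = 0.0283). The zinc finger gene STZ was at 346, 298 and 284 FPKM at 4D 16H, against 196, 129 and 229 FPKM at 4D, and WRKY33, a regulator of defence, was at 314, 323 and 295 FPKM at 4D 16H, against 256, 148 and 181 FPKM at 4D, both outside the threshold (adjusted p of limma 0.0656 and 0.0661).

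Further transcription factor and signalling genes of this kind were called outside the list and were picked out after the values were seen. MKS1 (AT3G18690), a substrate of the defence kinase MPK4, was at 39.1, 31.1 and 29.5 FPKM at 4D 16H, against 15.9, 14.1 and 19.9 FPKM at 4D (log2 fold change 0.96). RAV1 (AT1G13260) was at 82.9, 77.2 and 66.4 FPKM at 4D 16H, against 42.6, 40.2 and 61.6 FPKM at 4D (log2 fold change 0.66), and DREB26 (AT1G21910) was at 20.7, 20.6 and 15.5 FPKM at 4D 16H, against 13.4, 8.08 and 11.3 FPKM at 4D (log2 fold change 0.75). The libraries did not overlap in any of them. Whether the ages were harvested and sorted together is not given in the sources used here, and a part of handling in these differences was not tested.

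Of 34 jasmonate genes tested, 1 rose and 1 fell, where 0.73% and 0.299% of all loci did. In 3 the 4D 16H libraries were above (8.82%, against 20.9% of all loci) and in 6 below (17.6%, against 6.39%), and the median was -0.12 (-0.07 without 4D replicate 2). MYC2 (AT1G32640), the master factor of the jasmonate response, rose and was at 233, 216 and 159.8 FPKM at 4D 16H, against 131, 132 and 136 FPKM at 4D, where the 4D libraries were close together and 4D 16H replicate 3 was the nearest to them (log2 fold change 0.59, SE 0.12). ACX1 (AT4G16760), an acyl-CoA oxidase of the beta-oxidation steps of jasmonate synthesis, fell and was at 101, 113 and 119.9 FPKM at 4D 16H, against 151, 178 and 165 FPKM at 4D (log2 fold change -0.56). Its relative ACX5, outside the list, was at 4.35, 5.58 and 5.66 FPKM at 4D 16H, against 8.27, 9.86 and 9.95 FPKM at 4D, and also fell (log2 fold change -0.74).

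Among cytokinin genes 1 of 23 fell, none rose, 5 had 4D 16H above (21.7%, against 20.9% of all loci, the background rate) and 3 below (13.0%, against 6.39%), and the median was 0.26 (0.14 without 4D 16H replicate 1). LOG1 (AT2G28305), an enzyme that releases active cytokinins, was at 3.07, 4.71 and 5.61 FPKM at 4D 16H, against 6.98, 13.0 and 8.40 FPKM at 4D, with the 4D 8H libraries lower still at 2.51 and 2.91 FPKM (log2 fold change -0.92, with SE 0.19 and limma adjusted p = 0.0474). Its relative LOG7 was at 164, 160.2 and 221 FPKM at 4D 16H, against 222, 334 and 268 FPKM at 4D, and the cytokinin receptor HK3 was at 42.1, 39.6 and 41.96 FPKM at 4D 16H, against 51.96, 64.9 and 57.0 FPKM at 4D, both below without passing (adjusted p of limma 0.0614 and 0.0596). The type-A response regulator ARR3, which cytokinin induces, was at 57.7, 46.9 and 55.4 FPKM at 4D 16H, against 42.5, 30.3 and 38.7 FPKM at 4D, above without passing (adjusted p of limma 0.0901).

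In the list of gibberellin, ethylene and abscisic acid genes 1 of 39 fell and none rose, where 0.299% and 0.73% of all loci did. The 4D 16H libraries lay above those of 4D in 7 (17.9%, against 20.9% of all loci) and below in 5 (12.8%, against 6.39%). The median was 0.10 (0.04 and 0.00 after the other scalings). LTI78 (AT5G52310), also called RD29A, is induced by cold, drought and abscisic acid, and was at 133, 120.3 and 139 FPKM at 4D 16H, against 189.7, 258 and 193 FPKM at 4D. At 4D 8H it was at 112 and 119.9 FPKM, below every library of both groups, and 4D replicate 2 was the highest (log2 fold change -0.69, with SE 0.15 and limma adjusted p = 0.0474). The phosphatase genes ABI1 and ABI2, which the hormone induces and which restrain its signal, were below without passing. ABI1 was at 194, 213 and 248 FPKM at 4D 16H, against 276, 339.6 and 290.3 FPKM at 4D (adjusted p of limma 0.0613). LEA4-5, a protective protein gene outside the list, was at 96.1, 93.5 and 92.5 FPKM at 4D 16H, against 138, 221 and 126 FPKM at 4D and fell (log2 fold change -0.73).

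Of the genes of nutrient supply, FER1 (AT5G01600), a plastid ferritin that stores iron, fell and was at 123, 139 and 92.6 FPKM at 4D 16H, against 166, 229 and 246 FPKM at 4D, with 4D 16H replicate 3 the lowest (log2 fold change -0.85, with SE 0.16 and limma adjusted p = 0.0440). It was the one call among 21 iron genes, where 0.73% of all loci rose and 0.299% fell. The 4D 16H libraries lay above those of 4D in 3 of these genes (14.3%, against 20.9% of all loci) and below in 5 (23.8%, against 6.39%). Their median was 0.13 (-0.01 after quantile normalization, and -0.01 without 4D 16H replicate 2, so that its sign was not fixed). bHLH39, an activator of iron uptake, was at 10.2, 8.99 and 10.4 FPKM at 4D 16H, against 6.43, 4.64 and 3.27 FPKM at 4D (adjusted p of limma 0.0608). GLN1;4 (AT5G16570), a cytosolic glutamine synthetase, was the one call among 31 nitrogen, sulfur and phosphate genes and rose, at 9.69, 7.91 and 6.33 FPKM at 4D 16H, against 3.71, 4.50 and 4.12 FPKM at 4D (log2 fold change 0.80). The median of that list was -0.15 (-0.28 when 4D 16H replicate 3 was left out, and -0.06 when replicate 2 was). In it 8 members had an unadjusted p of limma under 0.05 lower and 2 higher, where 6.41% and 17% of all loci did. The 4D 16H libraries lay above those of 4D in 1 (3.23%, against 20.9% of all loci) and below in 2 (6.45%, against 6.39%).

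Sugar starvation and heat shock genes had medians below 0. Of 32 starvation genes tested none was called by limma, and the median was -0.19 (-0.25 and -0.27 after the other scalings, -0.09 without 4D replicate 3). An unadjusted p under 0.05 was found below at 11 and above at 3, where 6.41% and 17% of all loci had one. The 4D 16H libraries lay below those of 4D in 7 (21.9%, against 6.39% of all loci) and above in 3 (9.4%, against 20.9%). DIN2, a glucosidase gene induced in the dark, was at 1.34, 2.88 and 5.25 FPKM at 4D 16H, against 2.84, 12.4 and 37.9 FPKM at 4D, and ASN1, the dark-induced asparagine synthetase gene, was at 15.7, 16.5 and 25.1 FPKM at 4D 16H, against 20.2, 42.9 and 126 FPKM at 4D. The libraries of both overlapped, 4D replicate 1 being at the level of 4D 16H and 4D replicate 3 far above (adjusted p of limma 0.113 and 0.0967). MSS1, a sugar transporter, was nearest to the threshold, at 139.9, 162 and 212 FPKM at 4D 16H, against 224, 322 and 333 FPKM at 4D (adjusted p of limma 0.0563).

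Of 26 heat shock genes none was called by limma, and the median was -0.25 (-0.47 when 4D replicate 1 was left out, and -0.16 when replicate 2 was). An unadjusted p under 0.05 was found below at 5 and above at 3, where 6.41% and 17% of all loci had one. The 4D 16H libraries lay below those of 4D in 2 (7.69%, against 6.39% of all loci) and above in 3 (11.5%, against 20.9%). The members nearest to the threshold lay in opposite directions. HSP70 (AT3G12580) was at 57.6, 77.7 and 73.3 FPKM at 4D 16H, against 81.7, 256 and 129 FPKM at 4D, where 4D replicate 2 was the highest library and 4D replicate 1 was near 4D 16H. The mitochondrial chaperonin gene HSP60 was at 64.9, 55.3 and 56.0 FPKM at 4D 16H, against 45.0, 39.9 and 31.8 FPKM at 4D, with every 4D 16H library above those of 4D (adjusted p of limma 0.0877 and 0.0935). Of 23 genes of reactive oxygen enzymes none was called by limma, and 8 had an unadjusted p under 0.05 below and 1 above. The 4D 16H libraries lay below those of 4D in 4 (17.4%, against 6.39% of all loci) and above in 1 (4.35%, against 20.9%). The median was -0.18 (-0.09 when 4D replicate 2 was left out, and -0.32 when 4D 16H replicate 3 was).

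Genes that loosen and extend the cell wall had a median well above that of all loci. Of 36 cell wall and growth genes 1 rose, 11 had 4D 16H above 4D (30.6%, against 20.9% of all loci) and none below, and the median was 0.38 (0.32 and 0.33 after the other scalings, 0.26 to 0.48 without each library). XTH17 (AT1G65310), which cuts and rejoins xyloglucan chains, was at 271, 233 and 307 FPKM at 4D 16H, against 211, 148 and 156 FPKM at 4D (log2 fold change 0.66, SE 0.15). Arabinogalactan and fasciclin-like protein genes at the cell surface were called outside the list and picked after their values were seen. AGP7 was at 168, 193 and 140.2 FPKM at 4D 16H, against 112, 91.8 and 94.9 FPKM at 4D (log2 fold change 0.73), FLA9 was at 677, 522 and 426 FPKM at 4D 16H, against 393, 287 and 278 FPKM at 4D (log2 fold change 0.75), and the expansin gene EXPA14 was at 41.2, 39.2 and 42.99 FPKM at 4D 16H, against 29.8, 23.4 and 19.8 FPKM at 4D (log2 fold change 0.75). None of the 3 had overlapping groups.

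Root hair and epidermis genes had a median of 0.33 with none of 30 called by limma, and reached 0.49 without 4D replicate 1. An unadjusted p under 0.05 was found above at 11 and below at none, where 17% and 6.41% of all loci had one. The 4D 16H libraries lay above those of 4D in 6 (20%, against 20.9% of all loci) and below in none. SHV2, which shapes growing hairs, was at 35.4, 26.8 and 17.7 FPKM at 4D 16H, against 18.1, 8.22 and 12.2 FPKM at 4D, and GL2, which specifies hairless cells, was at 7.04, 5.62 and 5.50 FPKM at 4D 16H, against 3.91, 2.92 and 4.46 FPKM at 4D (adjusted p of limma 0.0614 and 0.0660). 4D replicate 1 overlapped 4D 16H for SHV2. Of the remaining lists, xylem genes (38 tested, median 0.05) held LHW as their call, and no member was called by limma among genes of auxin transport (23 tested, median 0.20) and response (32, 0.11), brassinosteroids (22, 0.19), peptides (25, 0.16), the endoplasmic reticulum (26, 0.16), the circadian clock (28, 0.01), light response (29, -0.05), the root cap (10, 0.15), the endodermal barrier (13, -0.06), phloem (19, 0.11), triterpene clusters (8, -0.05) and aquaporins (21, 0.17). In each of these uncalled lists at most 9 members had an unadjusted p under 0.05 higher at 4D 16H and at most 2 lower. Over all loci 17% had such a p higher and 6.41% lower. The 9 were among the 23 auxin transport genes, and 2 of the 32 auxin response genes had one higher. In the auxin transport list the 4D 16H libraries lay above those of 4D in 21.7%, against 20.9% of all loci. The medians of the clock, xylem and phloem lists changed sign with the scaling, and those of the clock, xylem, light response, auxin response, endodermal and triterpene lists did so when single libraries were left out (endodermal, -0.45 without 4D replicate 3 and 0.11 without 4D replicate 2). Single libraries also moved the medians of aquaporins (0.04 to 0.26), the root cap (0.02 to 0.21), peptides (0.04 to 0.25), phloem (0.00 to 0.29), the endoplasmic reticulum (0.12 to 0.31) and brassinosteroids (0.13 to 0.29), so that none of these is firm. The clock genes nearest to the threshold were TCP11, at 28.9, 23.8 and 14.5 FPKM at 4D 16H, against 13.8, 10.6 and 13.0 FPKM at 4D, and GRP7, at 503, 543 and 661 FPKM at 4D 16H, against 430.4, 406 and 274 FPKM at 4D (adjusted p of limma 0.0569 and 0.0780).

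The later ages show where the level at 4D 16H lay in the whole course. All steps share libraries with the comparison above, so the values are given side by side without a test. NOP56 averaged 34.2 ± 5.66 FPKM at 4D, 45.1 ± 0.674 at 4D 8H, 65.1 ± 9.05 at 4D 16H and 27.1 ± 1.24 at 5D (± SD over 3, 2, 3 and 3 libraries), and its mean at 4D 16H was the highest of the 7 ages, the next being 45.1 ± 0.674. HTA6 averaged 71.2 ± 5.68 FPKM at 4D, 124 ± 13.5 at 4D 16H, 68.6 ± 5.80 at 5D and 82.5 ± 25.9 at 6D, with the widest SD at 6D. CDC20.1 averaged 6.11 ± 0.593 FPKM at 4D, 11.0 ± 1.69 at 4D 16H, 6.51 ± 0.514 at 5D and 10.9 ± 2.44 at 6D. For HTA6 the mean at 5D was thus back near that at 4D, and for CDC20.1 the means at 4D 16H and 6D differed by less than their SD.

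ERF13 averaged 88.9 ± 14.4 FPKM at 4D, 142 ± 12.4 at 4D 8H, 149 ± 4.71 at 4D 16H and 102 ± 5.09 at 5D. Its 2 higher ages were those within day 4, and from 5D on the means lay between 94.3 and 103.5 FPKM. WOX5 averaged 6.16 ± 2.34 FPKM at 4D, 3.07 ± 0.418 at 4D 8H, 2.00 ± 0.784 at 4D 16H, 7.49 ± 1.46 at 5D, 2.71 ± 0.981 at 5D 8H, 8.92 ± 0.0648 at 5D 16H and 5.80 ± 1.87 at 6D. ZIFL1 averaged 134 ± 16.2 FPKM at 4D, 54.9 ± 22.4 at 4D 16H, 127 ± 14.5 at 5D, 68.9 ± 16.7 at 5D 8H and 112 ± 35.5 at 6D. Both were low at 4D 8H, 4D 16H and 5D 8H and high at the full days, and both were high at 5D 16H, where 1 of the 2 libraries had an estimated depth of 1.14 in the same unit of 1e+06 reads. LTI78 averaged 214 ± 38.6 FPKM at 4D, 131 ± 9.35 at 4D 16H, 195 ± 11.2 at 5D and 97.8 ± 21.1 at 6D, and its mean at 6D was the lowest of the course.

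**Figure D3:**
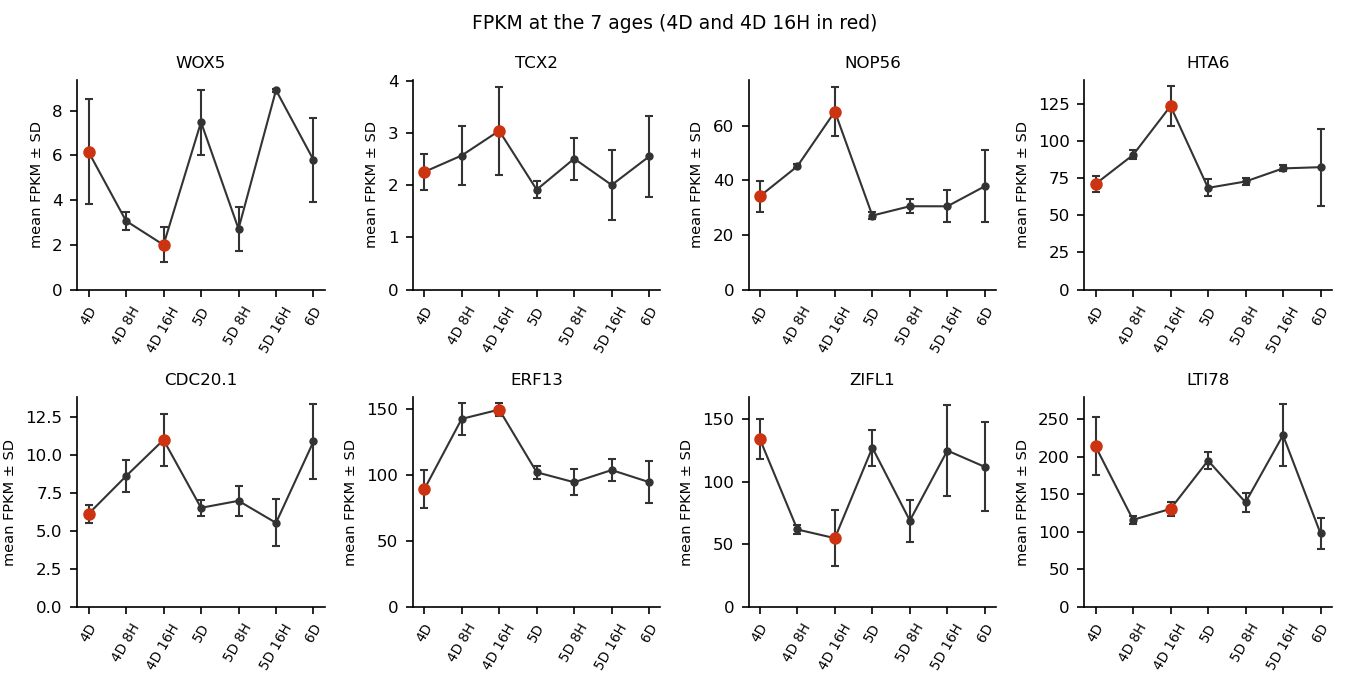
Mean FPKM (points, y axis from 0) with SD (bars) at the 7 ages (x axis; 2 libraries at 4D 8H and 5D 16H, 3 at the others) for 8 genes, with 4D and 4D 16H in red. NOP56, HTA6 and ERF13 have their highest mean at 4D 16H, whereas WOX5 and ZIFL1 have their lowest there, at 2.00 and 54.9 FPKM, and TCX2 has overlapping SD bars at 4D and 4D 16H.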

How the data were processed

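Cells left after removal of PET111:GFP-positive cells were sequenced in 19 libraries of 7 ages. The values deposited by the authors are FPKM per locus, with no counts. The submitters' processing notes name TopHat, Cufflinks and TAIR10, and the study's methods name single-end reads with Bowtie, Tuxedo and Rsubread, with versions not given in the sources used here. FPKM scales each library by its mapped reads, so that highly expressed genes lower the others, but it does not fix the sum of FPKM. That sum was 794665 to 813622 in the 4D 16H libraries and 785942 to 793840 in those of 4D. The upper quartile of the tested loci was 31.5 to 32.5 FPKM at 4D 16H and 30.5 to 31.1 FPKM at 4D. The log2 fold change was above 0 at 63.8% of all tested loci, and the cause of this was not tested. Counting depth is an estimate and gives no interval.

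Log2(FPKM + 1) was fitted with limma 3.58.1 in R 4.3.3, with a mean for each of the 7 ages and a variance trend, on loci of at least 1 FPKM over all libraries, and tested on simulated data first. The methods name a count test for other data of the study and none between these ages, and FPKM are not counts. TCX2 was also tested with scipy 1.17.1. Alternatives were 12 changes of pseudocount, filter, scaling, samples, block, variance model and zeros, and leaving out each of the 19 libraries.

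Genes were named by rule. These were the 12 largest rises and 12 largest falls among calls with transcripts of at least 300 nucleotides, at least 5 FPKM in the higher group and no overlap, every list member called, the nearest to the threshold in lists without calls, and the TCX2 model genes. Other genes that did not pass, such as PLT1, STZ or ASN1, and all called loci outside the lists, were picked after their values were seen. The members and lists were chosen with earlier results of these data known. Locus names, positions and promoter sequences are from the RefSeq annotation of TAIR10.1, in which 32489 of 33201 loci were matched. Of the names chosen for the lists, 108 matched no single locus by name. Those not then added by locus are absent from the lists.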

Additional observations from a re-analysis of the deposited data

How the results depend on the processing

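The 186 calls (132 higher, 54 lower) were not stable in number. A pseudocount of 0.1 gave 51 (38 higher, 13 lower), a filter at 5 FPKM 404 (281 and 123), no filter 0 (0 and 0, with 4777 loci at an unadjusted p under 0.05 and 26685 loci tested), upper quartile scaling 101 (52 and 49) and quantile normalization 156 (67 and 89). The fit of 4D and 4D 16H alone gave 2 (0 and 2), that with 4D 8H 488 (460 and 28), that without the 5D 16H age 515 (382 and 133), no variance trend 25 (21 and 4) and sample weights 3992 (3046 and 946). Under the sample weights, 4D 16H replicate 2 had a weight of 7.94, against 0.591 for replicate 1 and 0.467 for replicate 3. Zeros at high loci set to missing gave 188. Leaving out each of the 19 libraries gave 0 to 1452 calls, 0 to 1169 higher and 0 to 346 lower. The causes were not tested. With the replicate number as a block 366 loci were called (246 higher, 120 lower), the 186 among them. Whether the numbers pair the libraries is not given in the sources used here. The deviations of same-numbered 4D 16H and 4D libraries correlated at 0.17, 0.00 and 0.09, and those of the others at -0.20 to 0.10. Not every library correlated best with its own number, but so few libraries cannot settle whether they are paired. The 43 called loci that were named by rule leave out those picked after their values were seen, such as MIR393b and MKS1. None of the 43 changed direction under any of these fits that tested them. Their groups did not overlap, so that leaving out 1 library could not reverse them, and their direction there is no check. With the fit of 4D and 4D 16H alone, and with no filter, all 43 were no longer called. The call was lost at 34 without the variance trend, 29 with a pseudocount of 0.1, 16 with upper quartile scaling and 9 with quantile normalization. The log2 fold change of TCX2 was 0.14 to 0.43 without each library and 0.15 to 0.39 otherwise, and it was not called in any. The filter at 5 FPKM leaves TCX2 and other low loci without a value, and turned the median of its model genes to -0.44 (0.26 at 1 FPKM), since fewer of them were tested.

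As limits, the sources used here do not say whether the ages shared harvests or sorts, so that such batches were not tested. Bulk values do not tell the share of a cell type from its RNA content. With 3 libraries a group, all calls lay between adjusted p values of 0.0283 and 0.0494 by limma, and 1 library could end them. Without counts, low FPKM values have no counting interval.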
